A study of Schizosaccharomyces pombe with 12 samples.

Results

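The small-subunit ribosomal protein genes of fission yeast (Schizosaccharomyces pombe) were described in ribosome footprints and total RNA of wild-type and delta4dus cells. The members were 54 listed genes for proteins of the cytoplasmic 40S subunit, out of 5136 rows in each count table. They include both copies of most duplicated genes, the ubiquitin fusion gene ubi5 and cpc2, the gene for the ribosome-bound scaffold RACK1. The annotation names 58 such genes with a row. The 4 others (rps402, rps1001, rps1202 and ubi3) enter below only as partners of listed copies and in the small-subunit part of ribosomal protein footprints. The wild type carries the genotype label wild-type. The delta4dus strain is read from its name as lacking dus1, dus2, dus3 and dus4, the genes for the dihydrouridine synthases. Both assays were run on 3 samples per genotype (replicates A, B and C), 12 libraries altogether, from cells in mid-log growth without cycloheximide, harvested by filtration. No age, drug or further allele is given in the labels, and whether the letters stand for separate cultures is not stated, so p-values measure the spread between these libraries, which may be technical.

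The 40S subunit binds the mRNA and the initiator tRNA, scans for the start codon and holds the decoding centre. Its head and body close around the mRNA, which enters past uS3, uS4, uS5 and eS30 and leaves past uS2, eS1, uS11, eS26 and eS28. Every ribosome needs each of these proteins in equal number, and in growing yeast their mRNAs are among the most translated. Fission yeast keeps most of the genes in pairs with nearly identical products, and many of their promoters carry a conserved element called HomolD in place of a TATA box, often with a second element, HomolE, further upstream.

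Footprint libraries held 601969 to 1725344 counts in wild type and 1747608 to 2591755 in delta4dus, and total RNA libraries 1886954 to 2199320. Footprints of the dus genes checked the genotype label. dus1 had 0 CPM (the usual depth-scaled count, here with TMM factors) in the 3 delta4dus libraries against 40.2 ± 5.22 (SD, n = 3) in wild type, and dus3 had 0.316 ± 0.280 against 78.8 ± 3.49. dus2 had 2.54 ± 1.58 against 20.1 ± 6.16, and dus4 5.54 ± 3.12 against 15.5 ± 3.33, so counts remained in both rows in delta4dus.

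The HomolD element was looked for before each gene. Its core was searched as CAGTCAC on both strands (GTGACTG on the other) in the 250 bases before to 50 bases after each annotated transcript start of the ASM294v3 reference. The match was present in 50 of 54 members (92.6%), in 77 of 85 large-subunit genes (90.6%) and in 241 of 5123 promoters of protein-coding genes (4.70%). In the 50 members it began 43 to 74 bases before the start, with a median of 51, and read CAGTCAC on the coding strand in 32 genes and GTGACTG in 18. The stretches below run from 80 to 21 bases before the start, 5′ to 3′ on the coding strand, with the HomolD core in capitals. They show the neighbouring genes rps29 and rps27, the divergent pair rps2 and rps20, both copies of the pairs whose balance changed most, cpc2, and rps902, which holds no match.
rps29: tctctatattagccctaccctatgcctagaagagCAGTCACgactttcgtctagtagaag
rps27: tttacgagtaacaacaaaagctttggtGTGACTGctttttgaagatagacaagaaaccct
rps2: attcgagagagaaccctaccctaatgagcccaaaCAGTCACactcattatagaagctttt
rps20: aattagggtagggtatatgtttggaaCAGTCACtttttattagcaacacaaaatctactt
rps1801: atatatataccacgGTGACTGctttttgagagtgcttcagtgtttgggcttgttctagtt
rps1802: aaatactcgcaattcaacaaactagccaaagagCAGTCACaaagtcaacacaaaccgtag
rps3001: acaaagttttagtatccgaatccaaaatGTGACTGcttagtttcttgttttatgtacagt
rps3002: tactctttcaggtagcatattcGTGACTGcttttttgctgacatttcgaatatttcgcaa
cpc2: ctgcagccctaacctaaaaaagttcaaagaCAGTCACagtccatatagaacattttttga
rps902: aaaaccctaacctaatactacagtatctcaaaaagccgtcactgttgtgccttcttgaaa

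The stretches lie at chrII:516348-516407 (plus strand) for rps29, chrII:517241-517300 (plus) for rps27, chrIII:2096057-2096116 (minus) for rps2 and chrIII:2096447-2096506 (plus) for rps20. They lie at chrII:3620484-3620543 (minus) for rps1801, chrIII:1033502-1033561 (minus) for rps1802, chrI:4890240-4890299 (plus) for rps3001 and chrII:2349472-2349531 (minus) for rps3002. That of cpc2 is chrI:2439431-2439490 (plus) and that of rps902 is chrII:2059691-2059750 (plus). The HomolE core, searched as CCCTACC or GGTAGGG, was present in 21 members (38.9%), 26 large-subunit genes (30.6%) and 114 of all promoters (2.23%). In rps29 and rps2 it stands upstream of HomolD as ccctacc, and in rps20 as ggtaggg. Among the members without a HomolD match were rps902, rps1401 and rps2302, and each of these is 1 copy of a pair whose other copy holds one.

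**Figure D1:**
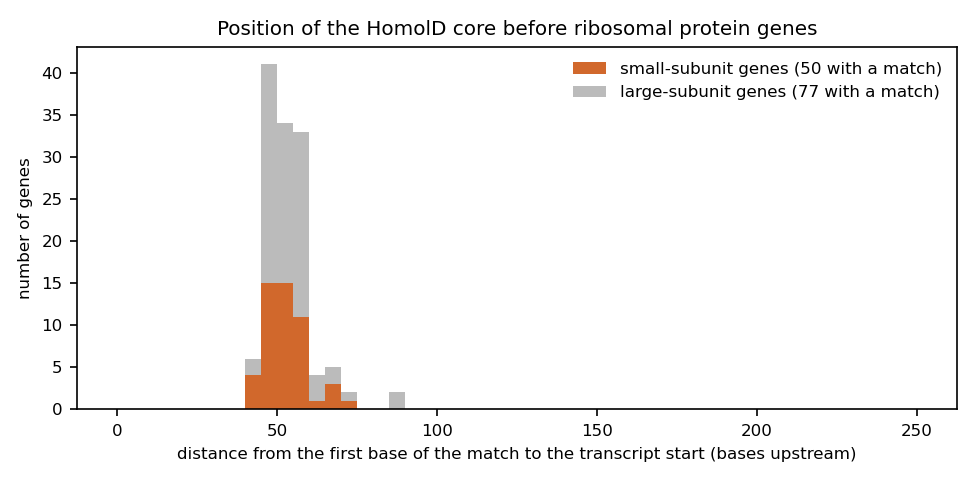
Number of genes (vertical axis) by the distance of the HomolD core from the annotated transcript start in bases upstream (horizontal axis), as stacked bars, with 50 small-subunit genes at the bottom and 77 large-subunit genes above them. The matches of the small-subunit genes all lie between 43 and 74 bases upstream.

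Small-subunit genes took 11.2%, 11.0% and 11.0% of all footprint counts in wild-type libraries A, B and C, and 12.3%, 12.2% and 12.4% in delta4dus. The groups did not overlap. The mean was 11.1% ± 0.0956 (SD, n = 3) in wild type and 12.3% ± 0.138 in delta4dus, a difference of 1.22 percentage points. The 85 large-subunit genes went from 15.6% ± 0.161 to 17.8% ± 0.153. The small-subunit part of ribosomal protein footprints was taken over all 58 annotated 40S genes and the 85 large-subunit genes. It fell from 43.1% ± 0.146 to 42.3% ± 0.121, also with no overlap. Both sets thus took more footprints, and the large-subunit set gained more. Counted per coding length, small-subunit genes held 18.9% ± 0.155 of wild-type footprints and 20.1% ± 0.131 in delta4dus.

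**Figure D2:**
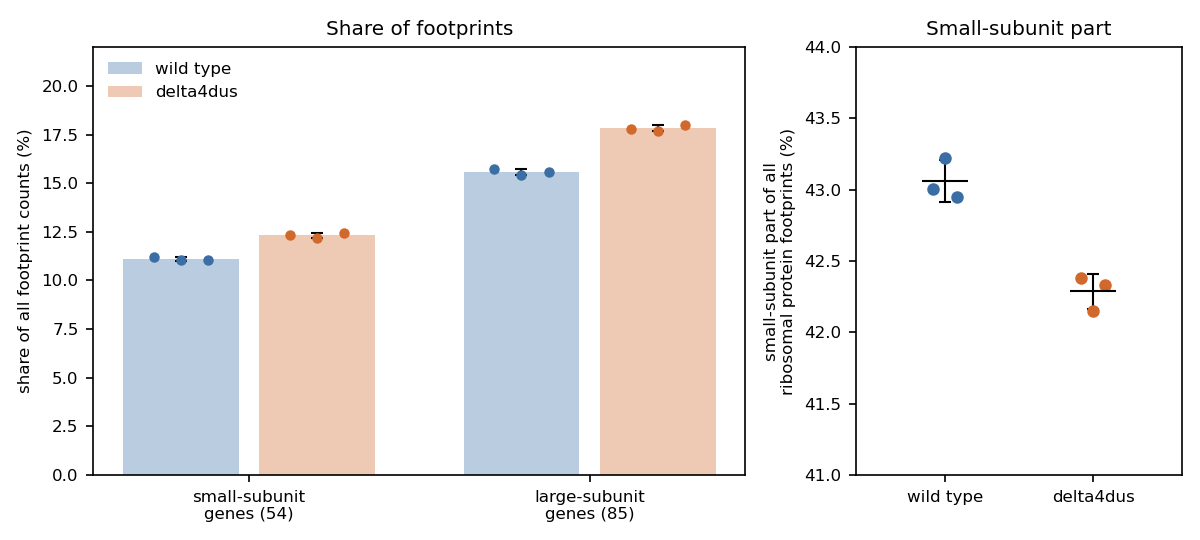
Left, share of all footprint counts (%) in the 54 small-subunit and the 85 large-subunit genes, with bars for the mean of 3 libraries, error bars for the SD and points for single libraries. Right, small-subunit part of ribosomal protein footprints over all 58 annotated 40S genes and the 85 large-subunit genes (%, axis not from 0). There the 3 delta4dus libraries lie below the 3 wild-type libraries.

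Each of the 54 genes rose in footprints in delta4dus under edgeR's quasi-likelihood test (adjusted p at most 0.00285). Among all 4505 genes tested, 654 (14.5%) were higher and 635 (14.1%) lower. The log2 fold changes were small and close together, from 0.18 to 0.54 with a median of 0.37 (1.29-fold), against a median of −0.03 over all genes tested, and 0 members reached 1.5-fold. In each of the 54 genes all delta4dus libraries lay above all wild-type libraries, which held for 854 of all genes tested (19.0%). Large-subunit genes had a median of 0.40, with 84 of 85 higher and 0 lower. The size depends on the scaling. With library totals alone the median of the members was 0.16 and that of all genes −0.23, 42 members passed, and rps1801 and rps3001 stood at −0.0216 and −0.0221. With an offset for coding length the median was 0.24 and 48 members passed. The 6 that did not pass with the offset (rps1801, rps20, rps2202, rps2601, rps2802 and rps3001) did not pass with library totals either, nor did rps001, rps002, rps1401, rps2, ubi5 and cpc2.

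**Figure D3:**
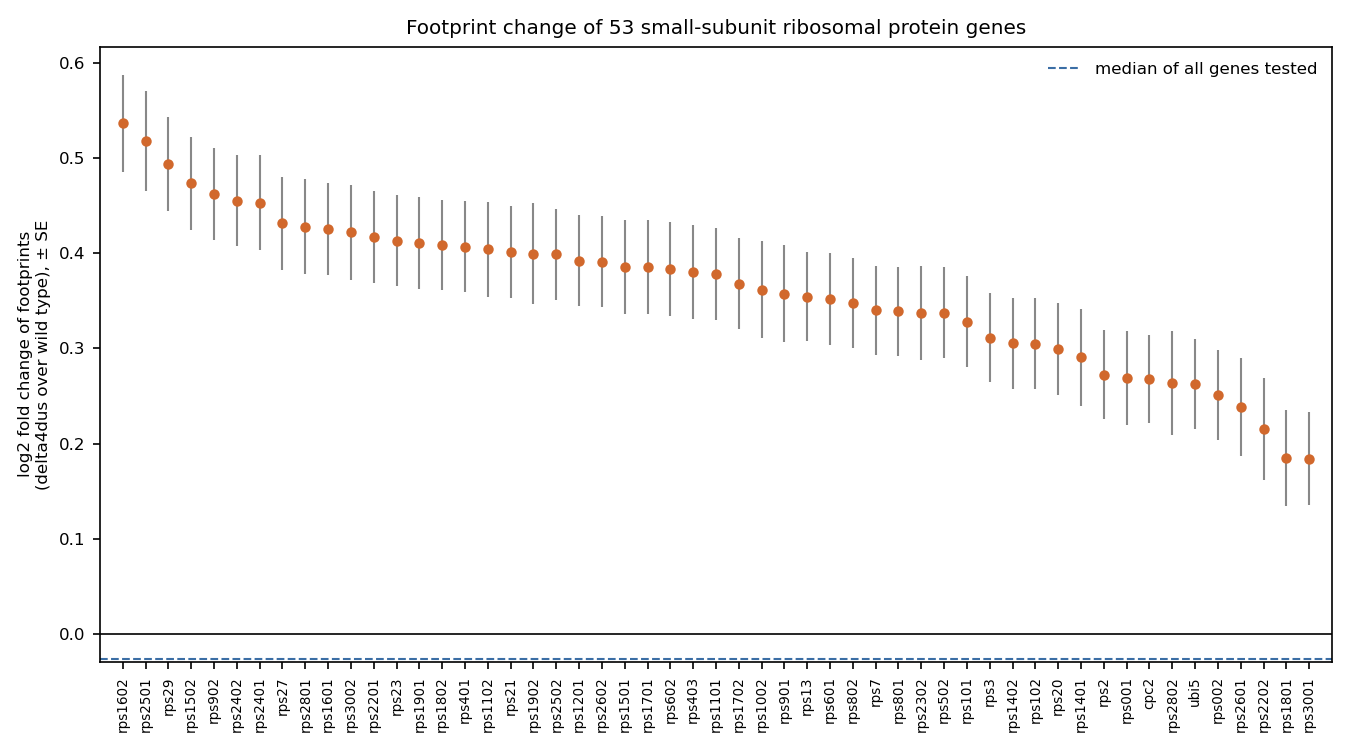
Log2 fold change of footprints, delta4dus over wild type (vertical axis), for 53 of the 54 genes in order of size, with bars for the standard error and a dashed line for the median of all genes tested. The points run from 0.54 for rps1602 to 0.18 for rps3001, all above 0.

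By place on the subunit, the 6 member genes for proteins at the mRNA entry (uS3, uS4, uS5 and eS30) had a median log2 fold change of 0.33, with a range of 0.18 to 0.46. The 10 genes for proteins of the mRNA exit and platform (uS2, eS1, uS11, eS26 and eS28) had a median of 0.30, with a range of 0.24 to 0.43. The 20 genes of the head and beak had a median of 0.39 (0.19 to 0.54), and the 18 genes of the body and shoulder 0.38 (0.22 to 0.46). The 4 ranges overlapped, and no test between them was made.

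The largest change was in rps1602 (SPAC664.04c.1), a gene for uS9, whose C-terminal tail reaches the P-site tRNA. It had 1061, 1148 and 1038 CPM in wild type and 1571, 1495 and 1621 CPM in delta4dus, a log2 fold change of 0.54 ± 0.0508 (SE; edgeR adjusted p = 1.39e-14). The groups lie far apart. rps2501 (SPBC3D6.15.1), for the head protein eS25, on which several viral internal ribosome entry sites depend, went from 797, 821 and 895 CPM to 1179, 1165 and 1234 CPM (0.52 ± 0.0523, edgeR adjusted p = 1.83e-13). In both of these pairs the gene with fewer footprints rose more than its partner. rps29 (SPBC1685.09.1) is the only gene for the head protein uS14. Its footprints were 1845, 1685 and 1632 CPM in wild type and 2442, 2361 and 2507 CPM in delta4dus (0.49 ± 0.0493, edgeR adjusted p = 1.19e-13), so each delta4dus library exceeded the highest wild-type library.

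Next came rps1502 (SPAC1071.07c.1), for uS19 on the decoding side of the head, with 1826, 1698 and 1642 CPM against 2455, 2331 and 2422 CPM (0.47 ± 0.0488, edgeR adjusted p = 4.15e-13). rps902 (SPBC29A3.12.1), for uS4 of the entry tunnel and without a HomolD match, had 2309, 2163 and 2089 CPM against 2973, 2988 and 3106 CPM (0.46 ± 0.0481, edgeR adjusted p = 5.91e-13). In both genes no wild-type library reached a delta4dus value. rps2402 (SPBC17G9.07.1), for eS24 of the body, had 1986, 1894 and 1905 CPM against 2739, 2558 and 2656 CPM (0.46 ± 0.0479, edgeR adjusted p = 9.03e-13). Its partner rps2401 (SPAC17G6.06.1) moved by nearly the same amount (0.45 ± 0.0498) at a lower level.

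The smallest change was in rps3001 (SPAC19B12.04.1), for eS30 at the mRNA entry. It had 1247, 1323 and 1296 CPM in wild type and 1439, 1470 and 1464 CPM in delta4dus (0.18 ± 0.0489, edgeR adjusted p = 0.00215). The groups were still apart, by less than in the genes above. rps1801 (SPBC16D10.11c.1), for the head protein uS13, had 1052, 1045 and 986 CPM against 1129, 1171 and 1208 CPM (0.19 ± 0.0505, edgeR adjusted p = 0.00285). rps2202 (SPAC5D6.01.1), for uS8 of the body, had 908, 926 and 782 CPM against 993, 1003 and 1046 CPM (0.22 ± 0.0536, edgeR adjusted p = 0.000982). Its highest wild-type library and lowest delta4dus library lie close together. With the coding-length offset or with library totals these 3 genes did not pass, and with the offset rps3001 stood at −0.0892.

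rps2601 (SPAC806.03c.1), for eS26 at the mRNA exit, had 879, 964 and 894 CPM against 1053, 1052 and 1099 CPM (0.24 ± 0.0515, edgeR adjusted p = 0.00014). It did not pass with the coding-length offset (0.067, edgeR adjusted p = 0.390) or with library totals (0.033, edgeR adjusted p = 0.582). rps002 (SPAPJ698.02c.1), for uS2 beside the exit, had 2295, 2371 and 2197 CPM against 2775, 2694 and 2693 CPM (0.25 ± 0.0474, edgeR adjusted p = 1.32e-05). ubi5 (SPAC589.10c.1) encodes ubiquitin fused to eS31, which is cleaved to give free ubiquitin and the beak protein. It had 2843, 2936 and 2951 CPM against 3479, 3352 and 3626 CPM (0.26 ± 0.0472, edgeR adjusted p = 4.88e-06). cpc2 (SPAC6B12.15.1), the RACK1 gene and the member with the most footprints, had 4407, 4343 and 4113 CPM against 5276, 5046 and 5179 CPM (0.27 ± 0.0466, edgeR adjusted p = 2.35e-06). With library totals alone rps002, ubi5 and cpc2 did not pass either (edgeR adjusted p = 0.350, 0.242 and 0.143), and ubi5 also did not with the replicate block added to the coding-length offset. Of the 6 genes with the smallest changes, 4 were the copy with fewer footprints of their pair, and of the 6 with the largest, 3 were. This label means little for rps902, ubi5 and rps3001, whose pairs were nearly even in wild type. The copy with more footprints took 50.4%, 51.4% and 51.1% in these pairs.

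Fold change was weakly related to coding length among the members, with a Spearman rho of −0.31 across 54 genes, and to wild-type density with a rho of 0.17. These are descriptions across genes of the same libraries, which are not independent replicates. The 27 shorter genes (up to 441 bases) had a median log2 fold change of 0.40 and the 27 longer ones 0.35, with ranges of 0.18 to 0.54 and 0.19 to 0.47 that overlapped. The median was 0.38 in the 50 members with a HomolD match and 0.34 in the 4 without, 0.36 with and 0.38 without HomolE, and 0.39 in the 29 members with an intron in the coding sequence against 0.34 in the 25 without one.

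The genes stood near the top of the translated mRNAs. In wild type 28 of the 54 were among the 100 rows with the most footprints and 48 among the top 200, at ranks 21 (cpc2) to 273 (rps2802). Per kilobase of coding sequence, levels ranged 5.40-fold in wild type and 6.07-fold in delta4dus, in nearly the same order (rho of 0.99 across the 54 genes). The highest was rps29, at 10063 ± 647 CPM per kb (SD, n = 3) in wild type and 14251 ± 427 in delta4dus. rps27 (SPBC1685.10.1), the only gene for eS27, came next at 8112 ± 523, followed by rps21 (SPBC18E5.06.1), the only gene for eS21, at 7747 ± 386. rps27 and rps21 do not differ beyond their spread, while every wild-type library of rps29 exceeds both. rps3001 had 6928 ± 208 CPM per kb and its partner rps3002 (SPBC19G7.03c.1) 6640 ± 385, which do not differ beyond their spread.

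The lowest wild-type density was that of rps1902 (SPBC649.02.1), for the head protein eS19, at 1865 ± 83.1 CPM per kb in wild type and 2482 ± 131 in delta4dus. rps001 (SPBC685.06.1), for uS2, had 1946 ± 99.8 in wild type and was lowest in delta4dus, at 2347 ± 109. In wild type rps403 (SPAC959.07.1), for eS4 of the body, had 2147 ± 122 CPM per kb, rps1401 (SPAC3H5.05c.1), for uS11 of the platform, 2206 ± 18.3, and rps2202 2218 ± 200. The libraries of rps1902 and rps001 overlap, as do those of rps403, rps1401 and rps2202 and those of rps001 and rps2202, so these neighbours cannot be ordered beyond their spread. All 5 of these genes have at least 1 other copy in the genome.

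Summing the copies of each protein, including the 4 unlisted genes, narrowed the range. The 33 proteins, of which 9 have a single gene, 23 have a pair and eS4 has 3 genes, spanned 4168 to 13569 CPM per kb in wild type, a ratio of 3.26. The coefficient of variation was 28.0% over proteins against 41.5% over single member genes. In wild type 28 of 33 proteins lay within 1.5-fold of the median of 7129, and in delta4dus 26 of 33 did. The 9 single-gene proteins had a median of 6457 CPM per kb with a range of 4168 to 10063, and the 24 others a median of 7210 with a range of 4593 to 13569, so the ranges overlapped widely.

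At the top stood eS30 with 13569 ± 476 CPM per kb, eS31 with 13211 ± 354, uS14 with 10063 ± 647 and eS25 with 8892 ± 277 in wild type. eS30 and eS31 did not differ beyond their spread. The coding sequences for eS30, uS14 and eS25 are short, at 186, 171 and 267 to 270 bases. How far length enters into these densities was not tested. The ubiquitin part of ubi3 and ubi5 is shared with other ubiquitin genes, and 63.9% of the 30-nt windows of the ubi5 coding sequence occur once in all coding sequences, so its level is uncertain. At the bottom stood uS3 (rps3, SPBC16G5.14c.1) with 4168 ± 100, RACK1 with 4537 ± 164, uS2 with 4593 ± 198 and uS5 (rps2, SPCC576.08c.1) with 4782 ± 91.7. These 4 are among the longest of the proteins, and each rose in delta4dus, uS3 to 5180 ± 151 and RACK1 to 5467 ± 122. All 33 proteins had delta4dus values above their wild-type values in every library, with ratios from 1.20 (uS2) to 1.42 (uS14). For proteins whose copies are all listed, this follows from the separation of each gene, so it is no separate support. Such separation held for 19.0% of all genes tested.

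**Figure D4:**
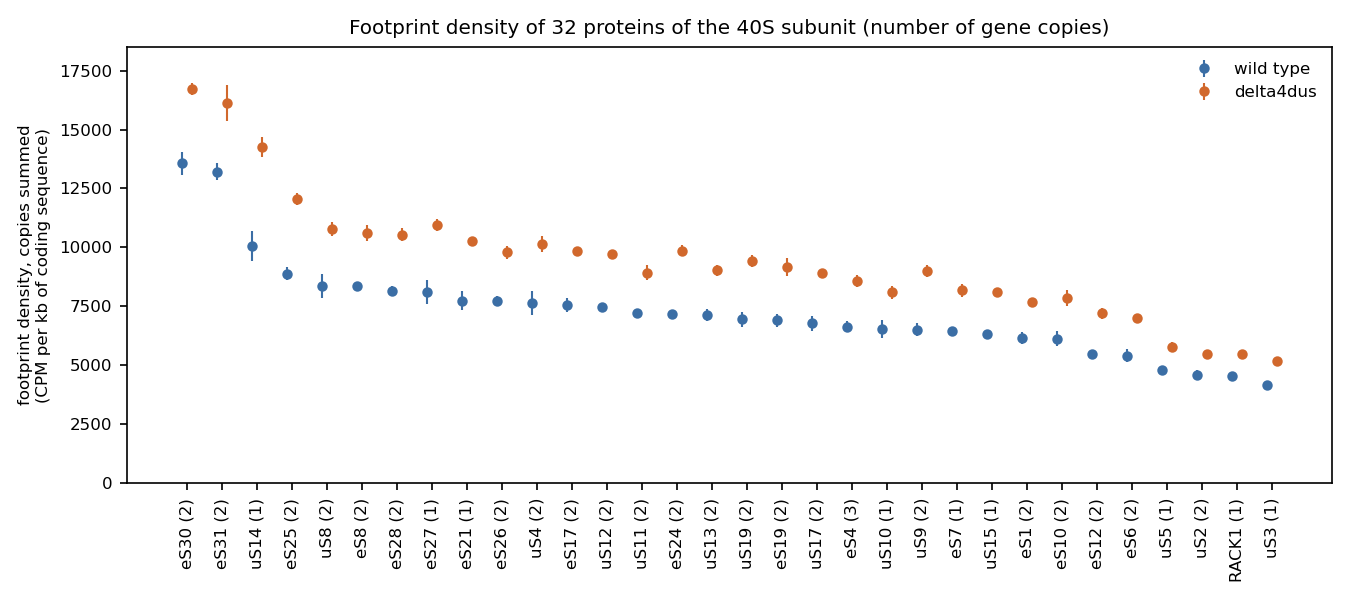
Footprint density with gene copies summed (CPM per kb of coding sequence) for 32 of the 33 proteins of the subunit, in order of the wild-type mean, with the number of gene copies in brackets, points for the mean of 3 libraries and bars for the SD. Most wild-type values lie near 7129, with eS30 and eS31 highest and uS5, uS2, RACK1 and uS3 lowest.

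The balance between copies was taken as the share of a pair's footprints that fell on the copy with more of them in wild type. There were 26 comparisons, 21 with both copies in the list and 5 with an unlisted copy, and 3 of them concern the 3 genes for eS4, which share copies. Shares in wild type, over the 25 comparisons shown, ran from 50.4% to 78.9%, and in 12 comparisons the major copy took at least 60%. The most uneven was eS12, a protein of the beak, where rps1201 (SPCC962.04.1) took 79.2%, 77.9% and 79.5% in wild type and 78.7%, 78.1% and 79.2% in delta4dus, against the unlisted rps1202. The groups overlapped. For uS8, rps2201 (SPAC22A12.04c.1) took 73.5%, 72.6% and 74.4% against rps2202. For eS19, rps1901 (SPBC21C3.13.1) took 72.2%, 74.7% and 72.5% in wild type and 72.8%, 73.5% and 73.0% in delta4dus against rps1902, again with overlap. For uS11, rps1402 (SPBC18H10.13.1) took 70.2%, 69.1% and 69.1% in wild type and 69.4%, 70.1% and 69.8% in delta4dus against rps1401. The uS11 copies encode the same protein and 73.9% of their 30-nt coding windows are unique, and how reads that match both copies were assigned is not given in the sources used here.

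In 10 of 26 comparisons the genotypes did not overlap, and in 8 of the 21 with both copies listed. The same held for 44 of 166 pairs of near-identical proteins outside the list (26.5%). Large-subunit pairs were not removed from these, and of 37 large-subunit pairs it held for 13 (35.1%). The shares are therefore not separate backgrounds. Each of the 10 gave p = 0.1 in the exact permutation test, two-sided, which is the smallest p that 3 against 3 libraries allow, so no pair can pass 0.05. The shifts were small, from 1.49 to 4.20 percentage points. The copy with more footprints gained in 7 of the 10 and lost in 3.

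The largest shift was in eS30. rps3001 took 50.0%, 50.4% and 52.8% of the footprints of its pair in wild type and 46.8%, 47.6% and 46.3% in delta4dus. In wild type the copies were nearly even. The mean fell by 4.20 percentage points, from 51.1% ± 1.51 (SD, n = 3) to 46.9% ± 0.667. The copies encode the same protein, and their coding sequences differ at 21 of 186 bases, shown in capitals below, so that every 30-nt window is found in only 1 of them. rps3001 lies at chrI:4890320-4890829 on the plus strand and rps3002 at chrII:2348960-2349451 on the minus strand, with introns removed here. Both overlap a coding gene on the other strand, fcp1 and abz2, and whether the counting used strand is not given in the sources used here.
rps3001: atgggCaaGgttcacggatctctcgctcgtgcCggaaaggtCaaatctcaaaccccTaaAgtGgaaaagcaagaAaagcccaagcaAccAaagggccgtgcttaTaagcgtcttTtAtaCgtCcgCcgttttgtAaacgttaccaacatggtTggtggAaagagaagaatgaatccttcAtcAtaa
rps3002: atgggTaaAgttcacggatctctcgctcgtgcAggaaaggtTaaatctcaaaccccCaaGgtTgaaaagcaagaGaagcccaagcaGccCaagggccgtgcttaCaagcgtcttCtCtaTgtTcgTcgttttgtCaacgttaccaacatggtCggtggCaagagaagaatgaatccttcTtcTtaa

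The next shifts went toward the larger copy. For uS13, rps1802 (SPCC1259.01c.1) took 68.2%, 68.9% and 68.6% in wild type and 72.1%, 71.7% and 71.6% in delta4dus, a gain of 3.21 percentage points over rps1801. The libraries of each genotype lie within 1 point of each other. For uS8, rps2201 went from 73.5% ± 0.871 to 76.1% ± 0.337, a gain of 2.60 points over rps2202. For eS26, rps2602 (SPAC1805.11c.1) took 69.0%, 65.9% and 66.9% in wild type and 70.5%, 69.3% and 69.5% in delta4dus, a gain of 2.51 points over rps2601 that left a narrow gap between the groups. For eS28, an mRNA exit protein, rps2801 (SPAC25G10.06.1) went from 62.3% ± 0.836 to 64.8% ± 0.531, a gain of 2.50 points over rps2802 (SPCC285.15c.1). In these 4 pairs both copies rose in delta4dus with TMM scaling, by more in the larger copy. The smaller copies (rps1801, rps2202, rps2601 and rps2802) did not pass with the coding-length offset or with library totals. In eS28, for example, rps2801 had a log2 fold change of 0.43 ± 0.0501 and rps2802 one of 0.26 ± 0.0545.

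Among the other separated comparisons, the larger copy lost 1.80 points in eS25 (65.0% to 63.2%, rps2502 against rps2501) and 1.79 points in uS9 (60.7% to 58.9%, rps1601 against rps1602). It gained 1.49 points in uS19 (53.4% to 54.9%, rps1502 against rps1501). In eS4, rps401 and rps403 each gained against the unlisted rps402, by 1.93 and 1.64 points, and overlapped against each other. Of the 30-nt windows of rps401, rps403 and rps402, 83.8%, 84.2% and 98.0% are unique, and how shared reads were assigned is not given in the sources used here. The remaining 16 comparisons (15 of those shown) overlapped between genotypes, which does not show that their balance did not change.

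**Figure D5:**
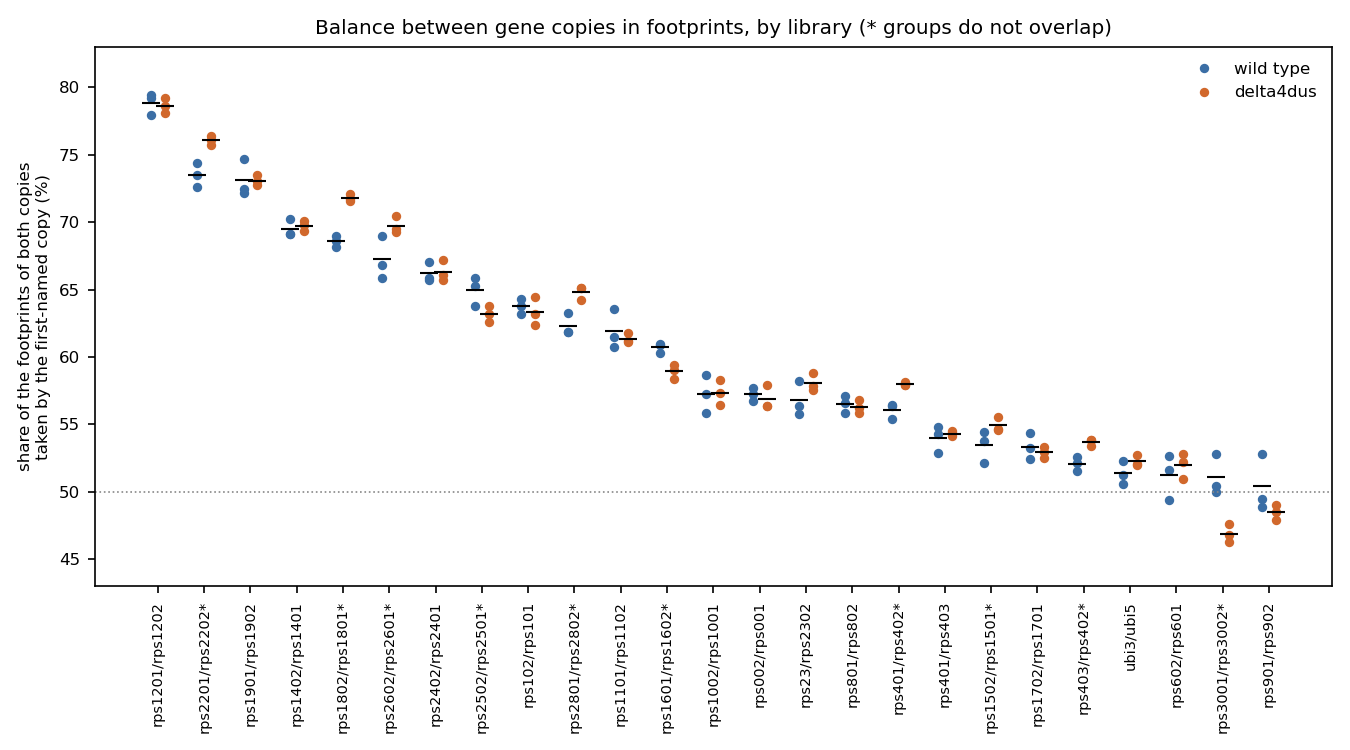
Share of the footprints of both copies taken by the first-named copy (%, axis not from 0) in each library for 25 of the 26 comparisons, with lines for the mean of 3 libraries, a dotted line at 50 and asterisks where the genotypes do not overlap. The largest shift is in rps3001 and rps3002, from 51.1% to 46.9%, and the most uneven pair is rps1201 and rps1202 near 79%.

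The member genes lie on all 3 chromosomes, 29 on I, 18 on II and 7 on III. Several stand next to another ribosomal protein gene. On chromosome II rps29 and rps27 are on the same strand 441 bases apart (0.49 and 0.43 in log2 fold change), as are rps1402 and rps1601 (SPBC18H10.14.1), 1000 bases apart (0.31 and 0.43). On chromosome III rps2 and rps20 (SPCC576.09.1), for the head protein uS10, are divergent, 490 bases apart, with log2 fold changes of 0.27 and 0.30. rps1602 is divergent from the large-subunit gene rpl13 across 102 bases (0.54 and 0.38). rps001 is convergent with the large-subunit gene rpl2701 across 110 bases (0.27 and 0.57). On the same strand, rps2602 stands 572 bases from ubi2 (0.39 and 0.35) and rps403 stands 289 bases from rpl2102 (0.38 and 0.42).

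Their coding sequences were short and their codon choice narrow. The median coding length was 441 bases, against 1140 over all genes with a row. Of lysine codons a median of 85.8% were AAG, against 35.7% over all genes, and of arginine codons 91.1% were CGT or CGC, against 40%. Lysine and arginine together made up 19.1% of codons, against 11.4%. Large-subunit genes were close to the members on each of these, at 88.2%, 90.2% and 19.6%. Introns in the coding sequence were present in 29 members (53.7%), against 46.7% of all genes.

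Related genes were counted in 4 lists, beside the 14.5% higher and 14.1% lower over all genes tested. Among 22 genes listed as initiation factors that bind the 40S subunit, 9 rose, 1 fell and 12 did not pass, with a median log2 fold change of 0.12. tif51, annotated as the elongation factor eIF5A and counted among the 9, rose from 1197 ± 76.9 to 2140 ± 45.8 CPM (0.83 ± 0.0503, edgeR adjusted p = 5.46e-24), and tif11, for eIF1A, which binds in the A site during scanning, rose by 0.35 ± 0.0662. sui1, for the start-codon factor eIF1, rose by 0.29 ± 0.0558. The 9 also include oga1, which is annotated as protein stm1 and not as an initiation factor. Among 31 genes listed as 40S assembly factors, 4 rose, 1 fell and 26 did not pass, with a median of 0.06. imp4 and mpp10, of the U3 snoRNP that processes the 18S precursor, rose by 0.51 ± 0.111 and 0.34 ± 0.102. The gene that fell, nep1 (−0.88 ± 0.207), is annotated as a NEDD8 protease and not as an assembly factor. The direction of both lists depends on the scaling. With library totals alone 1 gene of the initiation factor list rose and 10 fell (median −0.08). In the assembly list 1 rose and 6 fell (median −0.14), while 72 of 85 large-subunit genes still rose. Over all 4505 genes tested 334 rose and 1397 fell with that scaling. Their median was −0.23, so both list medians lay above it.

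Of 11 genes listed for ribosomal protein gene transcription, 3 rose and 8 did not pass, with a median of −0.01. tbp1, for the TATA-binding protein, rose from 112 ± 4.80 to 236 ± 9.16 CPM (1.08 ± 0.0884, edgeR adjusted p = 2.51e-17). fkh2 rose by 0.55 ± 0.0847 and sfp1 by 0.53 ± 0.127, both DNA-binding or transcription factors by annotation. Of 19 genes for TOR and S6 kinase signalling, the pathway that leads to phosphorylation of eS6, 4 fell and 15 did not pass, with a median of −0.22. psk1, an S6 kinase, had a log2 fold change of −0.68 ± 0.179 (SE), tor1, the kinase of TOR complex 2, one of −0.72 ± 0.210, and tsc2, which restrains TOR complex 1, one of −0.62 ± 0.185. With library totals alone 10 of the 19 fell, against 1397 of all 4505 genes, and with the coding-length offset 1 did. The eS6 genes themselves rose, rps601 (SPAC13G6.07c.1) by 0.35 ± 0.0482 and rps602 (SPAPB1E7.12.1) by 0.38 ± 0.0493.

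The total RNA rows of the members held almost no reads. They took 0.0322% to 0.0381% of the counts of a library, against 11.0% to 12.4% of footprint counts, and the median row had 4.42 counts on average, against 28.8 over all rows. In each library 36 to 42 of the 54 rows had at most 10 counts. Large-subunit rows had a similar median of 5 counts but took a larger share, 0.110% to 0.122% of the counts of a library. The highest rows were rps2802, with 149 to 176 counts, and rps3002, with 80 to 117, which overlap trs130 and abz2 on the other strand. The 14 members with a coding gene on the other strand had a median of 11.0 counts and the 40 without one 3.75. These rows were therefore not read as the mRNA levels of the genes, and translational efficiency was not tested, so more mRNA and more ribosomes per mRNA cannot be told apart in the footprints.

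Of the 54 rows 15 passed the filter on low counts, and 0 were higher and 0 lower under edgeR's quasi-likelihood test. Over all total RNA rows tested 475 of 3791 (12.5%) were higher and 394 (10.4%) lower. The smallest adjusted p of the 15 was 0.0534 by edgeR, and DESeq2 called 0 members. The median log2 difference of the 15 was −0.03, against 0.08 over all rows tested.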

How the data were processed

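Per the labels, footprints were RNase I-protected monosome fragments of 28 to 32 nt, prepared for strand-specific sequencing. The authors deposited whole-number read counts, not normalized, in 1 table per assay. Per the submitters' processing notes, Trimmomatic 0.36, Bowtie2 2.4, HISAT2 and featureCounts were used on ASM294v2, and strand and multiple-match settings are not given in the sources used here. The 12 count columns were matched to samples by name, with 0 left over. The authors' deposited table of log2 fold changes, p-values and adjusted p-values was not used here. Of 5136 rows, 5107 matched a gene of the RefSeq ASM294v3 reference by systematic ID, and coordinates and sequences are of that build.

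Genotypes were compared within each assay with edgeR 4.0.16 in R 4.3.3 (quasi-likelihood, TMM, default filterByExpr, two-sided, Benjamini-Hochberg over all genes tested, threshold 0.05). The SE is the log2 fold change over the root of the F statistic. Levels are CPM with TMM factors. DESeq2 1.42.0, other scalings and filters, a replicate block, coding-length offsets and left-out libraries were alternatives. Balance used raw counts per pair. Near-identical pairs outside the list had at least 80% protein identity (blastp 2.17.0+) and both genes tested, and that last condition was added later. The fits were tested on simulated data. Named genes were, by rule, the 6 largest and 6 smallest changes, the 5 highest and 5 lowest densities, cpc2, ubi5, the 4 most uneven and 4 most changed pairs, and up to 3 called genes per related list. Others were named after their values were seen. The members and lists were chosen with earlier results of these data known. The values of 1 member are counted in the totals but not reported here on their own.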

Additional observations from a re-analysis of the deposited data

How the results depend on the processing

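The count of members higher in footprints stayed at 54 of 54 under DESeq2, its size factors, TMM without ribosomal protein genes, both filter settings, the replicate block and each left-out library. It was 48 with coding-length offsets, with or without the replicate block, and 42 with total-count scaling, which was added after the data were seen. The median log2 fold change of the members, 0.37, moved to 0.16 with total-count scaling, 0.32 with a mean of at least 50 counts, 0.24 with coding-length offsets and 0.24 with these and the replicate block; left-out libraries gave 0.35 to 0.39. Relative to the median of all genes it was 0.40 with TMM and 0.39 with total-count scaling. These 2 scalings differ by about the same shift in all genes, so little difference could arise here. The relative value was 0.34 with a mean of at least 50 counts, 0.25 with coding-length offsets and 0.25 with these and the replicate block. rps1801 stood at −0.0216 and rps3001 at −0.0221 with total-count scaling, and rps3001 at −0.0892 with coding-length offsets and −0.0933 with the replicate block added; the cause was not tested. Over all genes in footprints 654 were higher and 635 lower, against 334 and 1397 with total-count scaling, 483 and 335 with DESeq2, 751 and 562 with TMM without ribosomal protein genes and 666 and 441 with coding-length offsets.

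In footprints same-letter deviations correlated weakly, at 0.0568, 0.0311 and 0.0342, and those of different letters at −0.0346 to −0.00498. Each footprint library correlated best with its own letter, as a hint from the data. In total RNA the same-letter values were 0.00728, −0.0573 and −0.197, so letters did not pair those libraries. The replicate block moved the footprint calls to 592 higher and 548 lower and the total RNA calls to 297 and 197. In total RNA, members higher numbered 2 with total-count scaling and 0 to 1 with a library left out (1 without wild-type replicate B), and members lower 1 with DESeq2 size factors and 1 with coding-length offsets. The total RNA calls over all rows, 475 higher and 394 lower, were 825 and 81 with total-count scaling, 376 and 527 with DESeq2 size factors, 229 and 420 with DESeq2 and 331 and 583 with coding-length offsets. The rise in the share of footprints, 1.22 points, was 1.41 without the 10 largest other rows in the total and 1.16 to 1.30 with a library left out. The 1.41 points are of a smaller total, in which the shares were 13.4% in wild type and 14.8% in delta4dus. Comparisons without overlap numbered 10 to 13 with a library left out, 10 as log2 ratios and 10 per coding length. Groups that do not overlap stay apart when a library is left out, so the first count could not fall. Log2 ratios and coding lengths leave the order of the libraries in a pair nearly or fully unchanged, so those counts are no separate support. The HomolD count was 50 also with the bases before the start alone.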

Other observations

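The HomolD core was also found 43 to 74 bases before the start of 45 of 4980 protein-coding genes outside both ribosomal protein sets (0.904%), a range taken from the members after it was seen. Among them were the 3 genes for the elongation factor eEF1A, tef101, tef102 and tef103, both subunits of the nascent polypeptide-associated complex, egd2 and btf3, and the ribosome-associated chaperone gene sks2. Of 44 such genes tested, 20 were higher in delta4dus footprints (45.5%) and 2 lower, with a median log2 fold change of 0.22, against 14.5% higher and 14.1% lower over all genes tested. With library totals alone 7 were higher and 12 lower, with a median of 0.01. Over all 4505 genes tested 334 were then higher and 1397 lower, with a median of −0.23. tef103 did not pass under that scaling. How reads that match more than 1 eEF1A gene were assigned is not given in the sources used here. tef103 went from 21594 ± 818 (SD, n = 3) to 25434 ± 653 CPM (0.24 ± 0.0473, SE), egd2 from 1324 ± 85.0 to 1715 ± 47.5 CPM (0.36 ± 0.05) and btf3 from 1234 ± 86.8 to 1561 ± 49.5 CPM (0.34 ± 0.0507). The translationally controlled tumour protein gene tma19 went from 1854 ± 25.2 to 2684 ± 74.2 CPM (0.53 ± 0.0477). The largest rise was in mcp60 (1.16 ± 0.0504), and the 2 that fell were byr3 (−0.27 ± 0.0590) and put1, for proline dehydrogenase (−0.79 ± 0.0998).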
